A study of Rattus norvegicus with 16 samples.

Results

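The metallothionein and NRF2 oxidative defence genes described here are Mt1, Mt2A, Nfe2l2, Gclc, Gclm, Gsr, Txnrd1, Srxn1, Gpx1 and Hmox1 in the liver of adult male Sprague-Dawley rats, read as a possible trace of developmental exposure to a mixture that contained methyl mercury. These 10 genes were chosen by name, and probes were assigned to them by matching each probe's transcript accession to the RefSeq gene table. All 10 had a probe among the 26913 gene names on the array. Of these, 9 were among the 11091 names bright enough in liver to be tested, and Gclm was not.

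Livers were taken at 78 to 86 days of age from 4 groups. In the MM group the dams had received 1.0 mg/kg/day of the mixture M (organochlorine pesticides, polychlorinated biphenyls and methyl mercury), and each litter was reared by a different dam on the same dose. In the M group the dose was the same and the pups stayed with their own mothers. The CC group came from dams given corn oil, with litters reared by a different corn oil dam, and the C group from dams given corn oil that kept their litters. The mixture was itself dissolved in corn oil, so all 4 groups share the vehicle, and dosing of the dams ran from gestation day 0 to postnatal day 20. The offspring were therefore read as adults, weeks after the last dose. For the M arrays a description field reads as a control, but their titles and the treatment text say they were dosed, and the group is treated as exposed here.

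With 8 pups per group and RNA combined from pairs of pups, each of the 16 arrays (4 per group) stands for 2 rats, and p-values measure the spread between these pools. The labels do not say which pups were siblings. Liver cRNA carried the red dye Cy5 on every array, and a reference RNA from 14 rat cell lines carried the green dye Cy3, with no dye swap. A log ratio here is log2 of liver over reference, so 1 unit is a doubling. The M and MM arrays lay on 1 slide and the C and CC arrays on another, so exposure and slide cannot be told apart. For that reason the liver channel and the reference channel are also given apart, each as log2 intensity after quantile normalization over the 16 arrays. The reference RNA was nominally the same on all arrays.

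The share of probes well above background was 35.0% to 41.9% in liver, lowest on MM replicate 3, and 61.6% to 66.1% in the reference. All 10 listed hepatocyte markers passed the brightness filter, as did 11 of 12 Kupffer cell and macrophage markers and 7 of 10 erythroid markers. Of the hepatocyte markers, 2 were called lower in exposed livers in the log ratio, where 5.67% of all tested features were called lower. None of them was called in the liver channel, where 1.46% of all features were called. All 7 erythroid markers lay below 0 in that channel for exposed minus control livers (median -0.28), where 46.2% of all features lay above 0. Their mean log2 level there ranged from 11.21 to 12.40 in MM livers and from 11.07 to 11.60 in M livers, against 11.19 to 11.90 in CC livers and 11.64 to 11.94 in C livers. None of these 7 was called in that contrast at a limma adjusted p under 0.05. In bulk liver, fewer cells of a type and less RNA per cell cannot be told apart. The part of blood content in the results was not tested.

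Metallothioneins are small, cysteine-rich proteins that hold zinc and copper and can bind mercury and cadmium. Their genes are switched on by the zinc-sensing factor MTF1, which binds metal response elements, and by glucocorticoids. NRF2, the product of Nfe2l2, is normally kept low by KEAP1, and when KEAP1 thiols are modified by electrophiles NRF2 enters the nucleus and binds antioxidant response elements in genes of glutathione synthesis, thiol reduction and heme breakdown. Methyl mercury binds thiols and leaves the liver largely as a glutathione conjugate in bile.

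The promoters of Mt1 and Mt2A are shown because these genes varied most among the 9 tested and varied together. Both lie on the minus strand of chromosome 19, with starts 5733 bases apart in the GRCr8 assembly. The sequences are RefSeq's, from 250 bases before to 50 bases after the annotated start, 5′ to 3′ on the gene's strand. The Mt1 window is chr19:10832926-10833225 and the Mt2A window chr19:10838659-10838958. Capitals mark every match, on either strand, to the core of the metal response element, written as TGCACNC or TGCGCNC.
Mt1: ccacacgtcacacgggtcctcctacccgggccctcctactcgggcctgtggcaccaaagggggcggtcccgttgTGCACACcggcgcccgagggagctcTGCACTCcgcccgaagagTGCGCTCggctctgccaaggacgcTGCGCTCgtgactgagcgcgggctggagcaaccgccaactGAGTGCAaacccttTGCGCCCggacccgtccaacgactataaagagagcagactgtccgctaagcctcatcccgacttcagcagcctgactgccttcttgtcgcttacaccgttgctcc
Mt2A: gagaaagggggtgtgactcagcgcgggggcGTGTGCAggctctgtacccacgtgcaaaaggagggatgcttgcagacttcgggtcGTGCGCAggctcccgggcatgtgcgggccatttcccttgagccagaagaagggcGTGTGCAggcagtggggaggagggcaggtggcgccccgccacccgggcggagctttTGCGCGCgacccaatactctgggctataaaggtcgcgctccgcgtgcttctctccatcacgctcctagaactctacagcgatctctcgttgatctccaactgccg
The Mt1 window held 6 matches and the Mt2A window 4. Of all 33469 RefSeq promoter windows of the same length, 24.2% held at least 1 match, 0.439% held 4 or more and 0.0388% held 6 or more. The core of the antioxidant response element, written as TGACNNNGC, had 1 match in each window, as it did in 12.1% of all windows (at least 1 match, either strand), and none of these overlapped a metal response match. Windows were given for 8 of the 10 genes, all except Gsr and Hmox1. The antioxidant core also matched once in the windows of Nfe2l2 and Gclm and in 1 of the pair given for Txnrd1, and the metal response core matched 2 times in that of Gclm. Neither core matched in the windows of Gclc, Srxn1 and Gpx1. A match describes these letters and was not tested as a binding site.

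Metallothioneins came first, as the genes most directly tied to metal binding. Mt1 and Mt2A had higher mean levels in M than in C livers, while their MM and CC means differed by less. No difference passed the threshold, and pools of 1 group differed by more than the groups did. The log ratio of Mt1 was 3.31, 2.27, 2.80 and 2.11 in the MM pools and 2.45, 2.64, 2.62 and 3.49 in the M pools. In control livers it was 2.53, 3.37, 1.77 and 2.66 in the CC pools and 1.19, 2.50, 2.41 and 3.03 in the C pools. The groups overlapped widely, with the highest value in M replicate 8 and the lowest in C replicate 9.

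The Mt1 log ratio averaged 2.62 ± 0.54 in MM and 2.80 ± 0.47 in M livers, against 2.59 ± 0.65 in CC and 2.28 ± 0.78 in C livers (SD, n = 4 each). Averaged over fostered and non-fostered pairs, exposed livers were 0.28 ± 0.28 above controls in the log ratio (difference ± SE, limma adjusted p = 0.626) and 0.45 ± 0.30 in the liver channel (limma adjusted p = 0.620). The 95% interval in the liver channel ran from -0.19 to 1.09. Within the first row of both slides, which holds arrays of all 4 groups, the liver channel difference was 0.42, and within the second row 0.48.

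Mt2A showed the same pools high and low. Its log ratio was 2.11, 1.1, 1.77 and 1.06 in the MM pools and 1.45, 1.38, 1.51 and 2.69 in the M pools. In control livers it was 1.1, 2.22, 0.31 and 1.55 in the CC pools and -0.48, 1.28, 1.12 and 1.67 in the C pools. Again M replicate 8 was highest and C replicate 9 lowest, and the other pools of all groups lay among each other.

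The liver channel alone of Mt2A averaged 13.73 ± 0.52 in MM and 14.08 ± 0.73 in M livers, against 13.41 ± 0.80 in CC and 12.83 ± 1.09 in C livers (SD, n = 4 each). Exposed livers were 0.78 ± 0.36 higher (1.72-fold, 95% interval 0.01 to 1.56), with a limma p of 0.0475 before and 0.387 after adjustment. Within the slide rows they were 0.99 and 0.58 higher. In the log ratio the difference was 0.54 ± 0.33 (limma adjusted p = 0.364). Mt2A was read by a probe with 1 spot on the array, and another probe with 10 spots gave 0.54 ± 0.43 in the liver channel and 0.38 ± 0.40 in the log ratio. In MM minus CC that probe's log ratio was -0.04 ± 0.56. The values within slide rows are those of the probe with 1 spot. Its reference channel on the C and CC arrays was 12.48 to 13.08 in the first slide row. In the second row it was 13.30 to 13.41. The probe with 10 spots gave 13.16 to 13.23 over both rows of that slide. How far this uneven signal of the single spot entered the Mt2A differences was not tested.

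The estimated metallothionein difference was larger among litters left with their mothers. In M minus C, Mt2A differed by 1.25 ± 0.51 and Mt1 by 0.80 ± 0.42 in the liver channel (limma adjusted p = 0.532 and 0.670), while MM minus CC gave 0.32 ± 0.51 and 0.10 ± 0.42. The Mt2A probe with 10 spots gave 0.98 ± 0.61 in M minus C and 0.10 ± 0.61 in MM minus CC. The sign of MM minus CC was not settled, since the log ratio (0.22 for Mt2A and 0.04 for Mt1) became -0.11 and -0.23 without CC replicate 3, and in same-numbered pairs of pools MM was higher in 2 of 4 for each gene. The test of that contrast itself, the interaction of exposure and fostering, gave -0.92 ± 0.73 for Mt2A and -0.70 ± 0.60 for Mt1 (limma adjusted p = 0.9998 for each). Single pools carried much of the M minus C values. Without C replicate 9 they were 0.79 for Mt2A and 0.42 for Mt1, and without M replicate 8 they were 0.88 and 0.55. The liver channel of M replicate 8 was 6.44-fold above that of C replicate 9 for Mt1 and 13.0-fold for Mt2A.

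Mt1 and Mt2A went up and down together from pool to pool. After each group's mean was subtracted, the liver channel values correlated at r = 0.93 (rho = 0.95, n = 16 pools) and the log ratios at r = 0.98. The liver value was r = 0.97 within the 8 exposed pools and 0.92 within the 8 control pools, and 0.91 over 14 pools without C replicate 9 and CC replicate 2, the farthest from the median. Both genes lay on the same side of the group mean in 13 of 16 pools in the liver channel and in 16 of 16 in the log ratio. The Mt2A probe with 10 spots correlated with Mt1 at r = 0.97 in the liver channel. These pools share an array and its normalization for both genes. Mt1 and Mt2A are close paralogs, and cross-hybridization between their probes was not tested, since no probe sequence was used here.

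**Figure D1:**
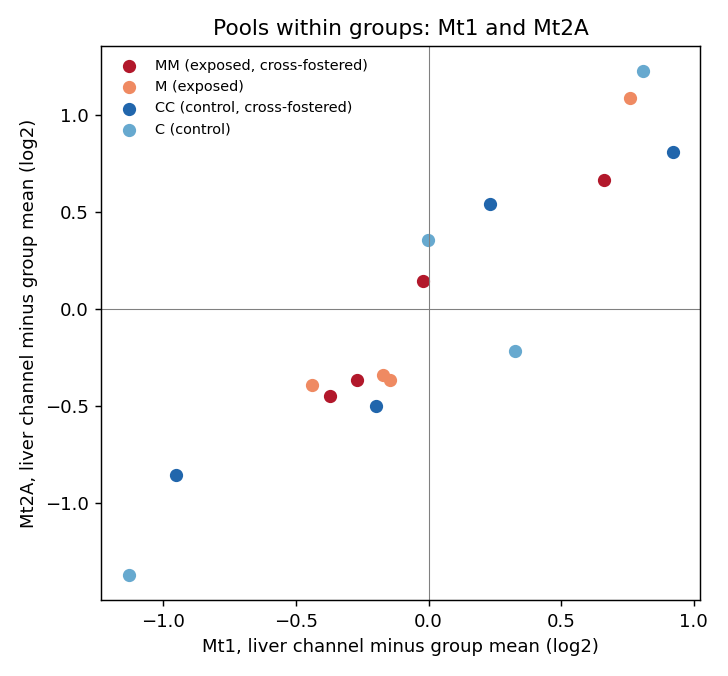
Liver channel of Mt2A (vertical) against Mt1 (horizontal), each as log2 intensity minus the mean of its group, with 1 point per pool of 2 rats (4 MM, 4 M, 4 CC and 4 C). The points follow a rising line (r = 0.93, n = 16), with M replicate 8, CC replicate 2 and C replicate 12 at the upper right and C replicate 9 at the lower left.

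The spread between pools set these genes apart in size from the others. The pooled within-group SD in the liver channel was 0.67 for Mt1 and 0.81 for Mt2A, at percentiles 99.5 and 99.8 of all tested features, whose median was 0.167. Gsr and Txnrd1 had an SD of 0.07 each, at percentiles 3.80 and 4.22, and both were dim in liver. The SDs of Nfe2l2, Gclc, Srxn1, Gpx1 and Hmox1 lay between 0.20 and 0.27. Apart from the metallothionein pair, the highest correlation across pools among the 9 genes in the liver channel was that of Gclc with Hmox1 (r = 0.51). The lowest pair was Srxn1 with Gpx1 (r = -0.70, and -0.53 over 14 pools without M replicate 6 and CC replicate 1).

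Nfe2l2, which encodes NRF2 itself, had similar levels in all groups. Its log ratio was 0.15, -0.06, 0.16 and 0.73 in the MM pools and 0.15, 0.23, 0.25 and 0.30 in the M pools. Control values were 0.11, 0.12, 0.72 and 0.19 in the CC pools and 0.14, 0.39, 0.52 and 0.35 in the C pools. MM replicate 4 and CC replicate 3 stood above the rest, and otherwise the groups ran through each other. The exposed minus control difference was -0.08 ± 0.11 in the log ratio (limma adjusted p = 0.755) and -0.19 ± 0.11 in the liver channel (limma adjusted p = 0.552). The 95% interval ran from -0.32 to 0.16 in the log ratio and from -0.42 to 0.05 in the liver channel, and neither covers a difference between the slides. NRF2 is controlled mainly as a protein, which these arrays do not read.

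Glutathione synthesis begins with glutamate-cysteine ligase, whose catalytic subunit is Gclc and whose modifier subunit is Gclm. Gclc had log ratios of 0.33 to 0.70 in MM pools and 0.30 to 0.93 in M pools, against 0.34 to 0.85 in CC pools and 0.49 to 0.69 in C pools. The ranges of all 4 groups overlapped. Exposed livers differed by -0.02 ± 0.09 in the log ratio and by -0.08 ± 0.10 in the liver channel (limma adjusted p = 0.930 and 0.850). Gclm could not be read, because its probe was not well above background on any of the 16 arrays in liver or in the reference.

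Gsr, glutathione reductase, which returns oxidized glutathione to its thiol form, was lower in exposed livers in the log ratio. Its log ratio was 0.82, 0.61, 0.56 and 0.54 in the MM pools and 0.55, 0.56, 0.48 and 0.63 in the M pools. Controls gave 0.86, 0.70, 0.65 and 0.76 in the CC pools and 0.93, 0.76, 0.74 and 0.97 in the C pools. All 4 M pools lay below all 4 C pools, while MM and CC overlapped through MM replicate 1. In same-numbered pairs of pools, MM minus CC was -0.04, -0.09, -0.09 and -0.21, negative in 4 of 4. In the liver channel the same pairs gave 0.09, 0.08, 0.09 and -0.04, negative in 1 of 4.

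Over both pairs Gsr fell by 0.20 ± 0.06 (limma adjusted p = 0.0496). Its liver channel did not show this. There it averaged 7.04 ± 0.10 in MM and 6.96 ± 0.03 in M livers, against 6.99 ± 0.07 in CC and 7.07 ± 0.07 in C livers (SD, n = 4 each), a difference of -0.03 ± 0.05 (limma adjusted p = 0.888). The reference channel of Gsr, which holds no liver RNA, was 7.65 to 7.69 on the M and MM arrays, against 7.50 to 7.54 on the C and CC arrays. It did not overlap between the slides and was 0.15 ± 0.01 higher on the slide with M and MM (limma adjusted p = 6.26e-08).

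The Gsr call rested on a narrow margin. Within the first row of both slides the log ratio difference was -0.18 (limma adjusted p = 0.226), and within the second row -0.22 (limma adjusted p = 0.242). It missed the threshold in 14 of the 16 fits that each left out 1 array, with limma adjusted p-values up to 0.101, the exceptions being those without C replicate 11 and without MM replicate 1.

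Txnrd1, cytosolic thioredoxin reductase, a selenoenzyme that keeps thioredoxin reduced, had log ratios of 0.07 to 0.25 in MM pools and 0.04 to 0.31 in M pools, against 0.24 to 0.42 in CC pools and 0.18 to 0.38 in C pools. The group means were lower in exposed livers, but the ranges overlapped. In same-numbered pairs of pools, the log ratio of MM minus CC was -0.33, -0.18, -0.17 and -0.10, negative in 4 of 4. The paired fit of that log ratio gave -0.20 ± 0.08 (limma adjusted p = 0.268). In the liver channel the same pairs gave -0.19, -0.03, -0.11 and -0.04, also negative in 4 of 4. Over both comparisons the difference was -0.16 ± 0.06 in the log ratio (limma adjusted p = 0.122) and -0.05 ± 0.05 in the liver channel (limma adjusted p = 0.743). The reference channel of Txnrd1 differed by 0.07 ± 0.04 between the slides (limma adjusted p = 0.174). The scanner software's own log ratio gave -0.37, which passed (limma adjusted p = 0.0373), with 21.2% of all features called in that setting. In liver the probe was well above background on 15 of 16 arrays, the exception being MM replicate 3, and a second Txnrd1 probe was never well above background there.

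Srxn1, sulfiredoxin, which repairs overoxidized peroxiredoxins and is a classic NRF2 target, had log ratios of -0.67 to -0.34 in MM pools and -0.97 to -0.21 in M pools, against -0.76 to -0.23 in CC pools and -0.58 to -0.26 in C pools. The groups overlapped throughout. Its difference was -0.05 ± 0.11 in the log ratio and 0.14 ± 0.12 in the liver channel (limma adjusted p = 0.846 and 0.733), so the sign depended on the channel read.

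Gpx1, the abundant selenium-dependent glutathione peroxidase of liver cytosol, had lower means in exposed livers in both comparisons and both measures. Its log ratio was 3.13, 2.75, 3.07 and 2.95 in the MM pools and 3.02, 3.18, 2.88 and 2.60 in the M pools. Control pools gave 3.43, 3.17, 3.23 and 2.89 in the CC pools and 3.33, 3.12, 3.05 and 3.12 in the C pools. The exposed pools reached lower, but the ranges overlapped.

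Its liver channel differed by -0.23 ± 0.09, with a limma p of 0.0287 before and 0.311 after adjustment, and in the log ratio by -0.22 ± 0.09 (limma adjusted p = 0.172). M minus C gave -0.23 ± 0.13 and MM minus CC -0.23 ± 0.13 in the liver channel. Neither passed the threshold (limma adjusted p = 0.724 and 0.882). Its reference channel differed by -0.03 ± 0.02 between the slides (limma adjusted p = 0.186), the smallest such value among the 9 genes.

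Hmox1, heme oxygenase, which breaks heme down to biliverdin, iron and carbon monoxide and responds to many stressors, was higher in exposed livers in the log ratio. Its log ratio was -0.72, -0.86, -0.81 and -0.73 in the MM pools and -0.74, -0.37, -1.01 and -0.69 in the M pools. The control values were -0.90, -1.20, -0.75 and -1.27 in the CC pools and -1.18, -0.95, -1.19 and -1.40 in the C pools. Exposed pools were mostly above control pools, with overlap through M replicate 7 against C replicate 10 and CC replicate 3 against the MM pools.

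Hmox1 rose by 0.36 ± 0.10 over both pairs (1.29-fold, limma adjusted p = 0.0292). The liver channel gave 7.17, 7.07, 6.90 and 7.21 in the MM pools and 7.12, 7.49, 6.88 and 7.29 in the M pools. Controls gave 7.26, 7.0, 7.36 and 6.95 in the CC pools and 6.99, 7.21, 6.81 and 6.84 in the C pools. There the groups ran through each other, with a difference of 0.09 ± 0.09 (limma adjusted p = 0.801).

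The Hmox1 reference channel was 9.38 to 9.46 on the M and MM arrays, against 9.63 to 9.73 on the C and CC arrays. These ranges were far apart, and the difference was -0.25 ± 0.02 (limma adjusted p = 4.22e-09), the largest in size among the 9 genes. Within the first row of both slides the log ratio of Hmox1 was 0.38 higher with exposure (limma adjusted p = 0.0767), and within the second row 0.34 higher (limma adjusted p = 0.237). Its call was lost in 6 of the 16 fits without 1 array, those without CC replicate 2, C replicate 12, CC replicate 4, M replicate 6, MM replicate 4 or M replicate 8, where the difference stayed between 0.31 and 0.36 and the limma adjusted p between 0.0534 and 0.0657.

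**Figure D2:**
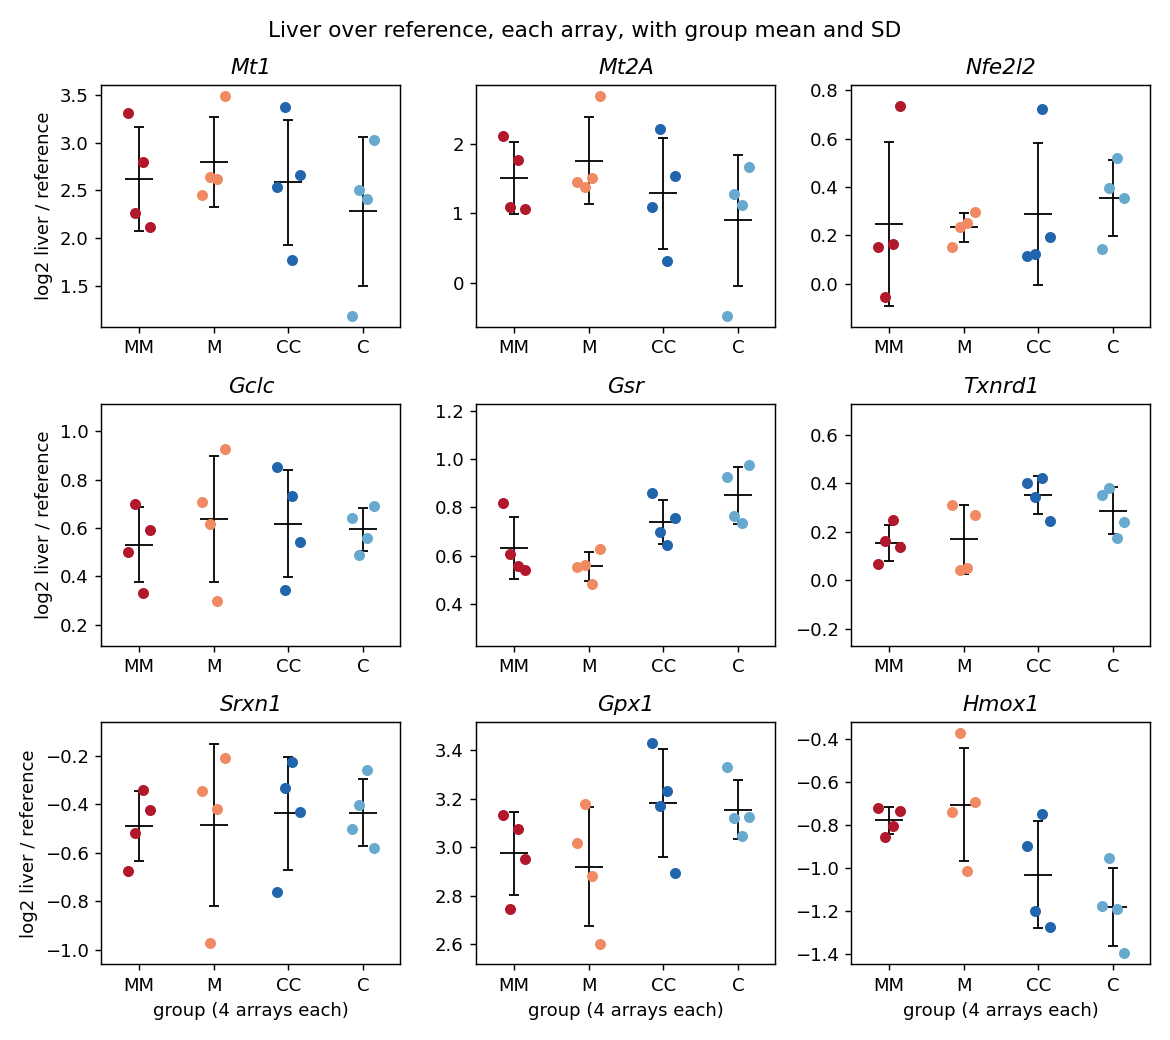
Log2 ratio of liver over reference (vertical axis, own scale in each panel, at least 1 unit high) for the 9 tested genes in the MM, M, CC and C groups. Points are pools of 2 rats, and bars give the mean and SD of 4 pools. Hmox1 runs from -1.01 to -0.37 in exposed pools and from -1.40 to -0.75 in control pools, and in Mt1 and Mt2A the pools of a group spread over more than 1 unit.

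**Figure D3:**
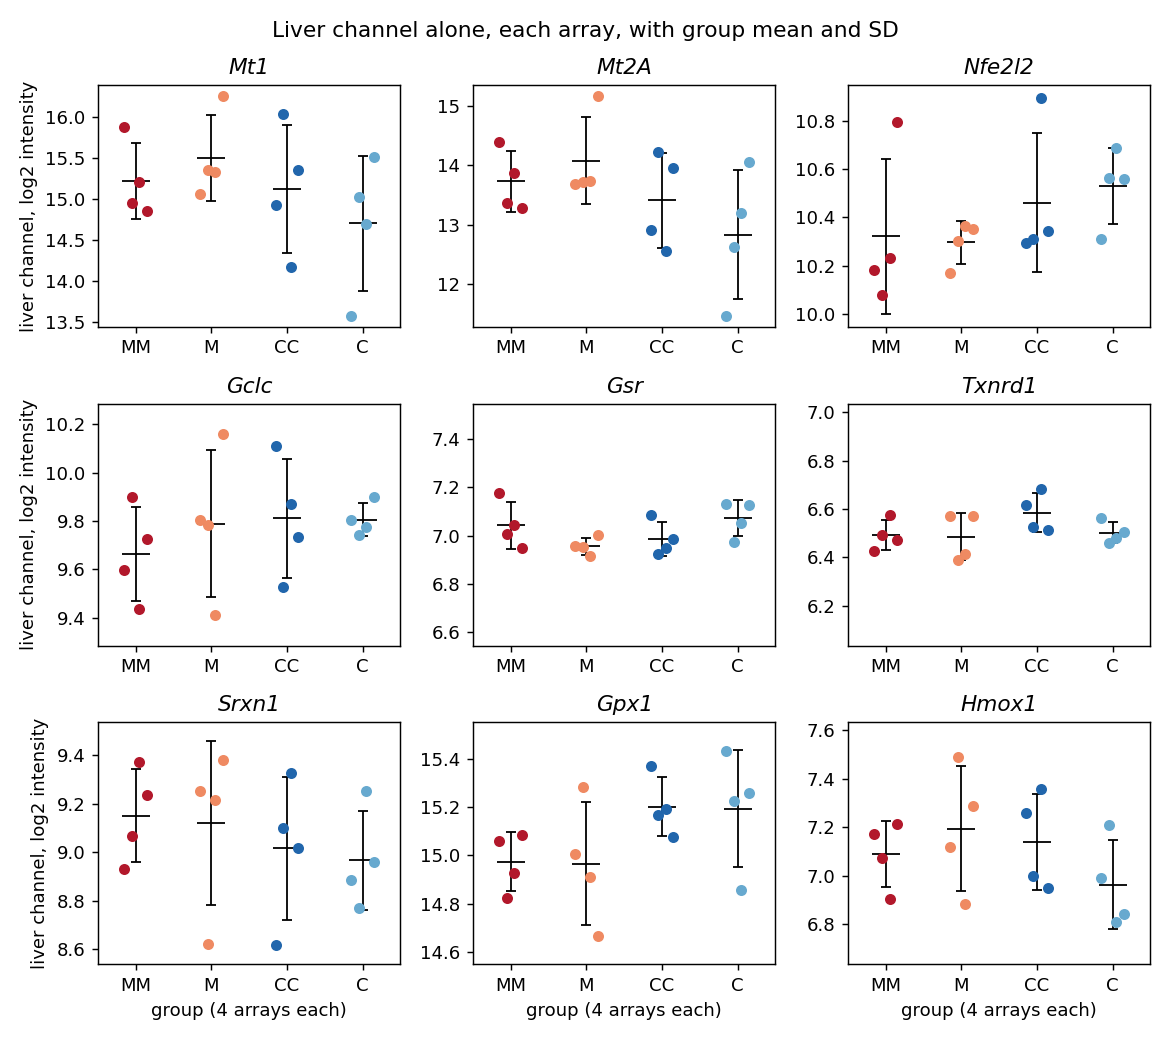
The liver channel alone for the same genes and groups, as quantile-normalized log2 intensity (vertical axis, own scale in each panel, at least 1 unit high), with points for pools and bars for the mean and SD of 4 pools. Hmox1 and Gsr differ by 0.09 and -0.03 between exposed and control pools, whose ranges overlap, and Mt2A spans 11.46 to 15.17.

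Read across the 9 tested genes, the exposure comparison gave 1 gene called higher (Hmox1) and 1 called lower (Gsr) in the log ratio, where 3.71% of all tested features were called higher, 5.67% lower and 9.39% in all. An unadjusted limma p under 0.05 was found for 4 of the 9 (Gsr, Txnrd1, Gpx1 and Hmox1), against 22.7% of all features. The median difference of the 9 was -0.05, against -0.03 over all features. By limma none of the 9 was called in the liver channel, where 1.46% of all features were called. There 2 had an unadjusted limma p under 0.05 (Mt2A and Gpx1), against 12.6% of all features, and the median was -0.03, against -0.01 over all features. The Mt2A value is that of the probe with 1 spot, and its probe with 10 spots had an unadjusted limma p of 0.232.

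In the reference channel 6 of the 9 were called, 3 higher (Mt1, Gsr and Srxn1) and 3 lower (Nfe2l2, Gclc and Hmox1) on the slide with M and MM, where 61.7% of all features were called, 29.0% higher and 32.7% lower. Arrays of the slides did not overlap for 4 of the 9, against 29.1% of all features. For Hmox1 the liver difference of 0.09 minus the reference difference of -0.25 comes to 0.34, beside 0.36 measured in the log ratio. For Gsr the same subtraction gives -0.18, beside -0.20 measured. Of the 1041 features called in the log ratio over the whole table, 82.2% were also called with the opposite sign in the reference channel, against 42.0% of the 10050 that were not called. Of the 1041, 7.49% were called with the same sign in the liver channel. Hmox1 and Gsr are both among the 82.2%. The log ratio is made of the liver over the reference channel. The near match of these subtractions and an excess of opposite reference shifts among its calls are therefore partly built in. Whether slide or exposure gave the calls cannot be told apart.

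**Figure D4:**
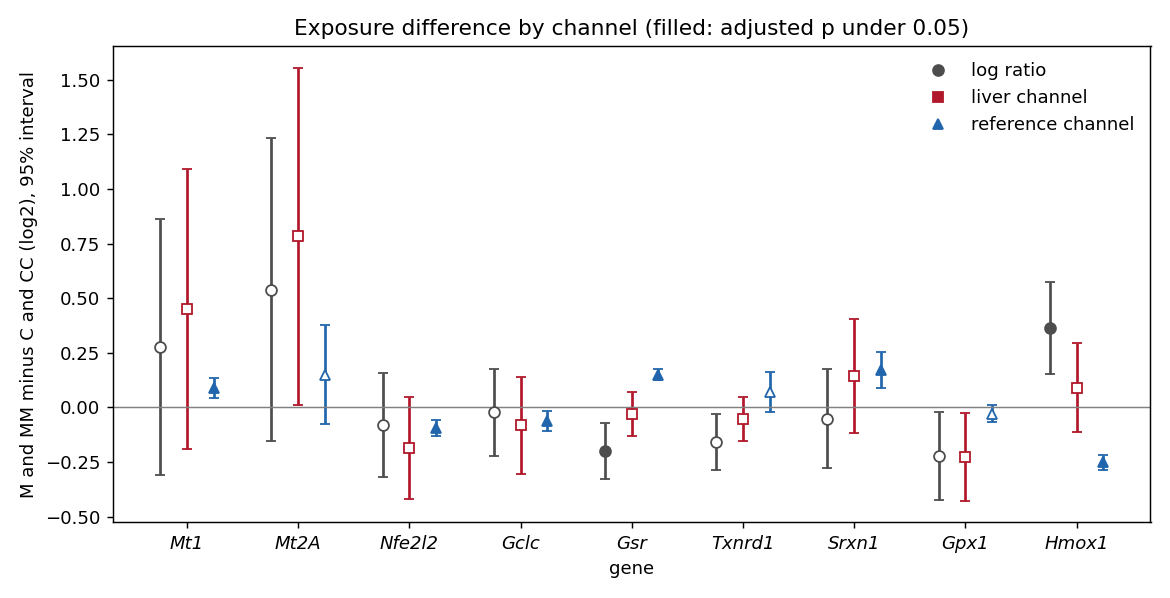
Difference of M and MM minus C and CC (log2) with its 95% interval for each gene, in the log ratio, the liver channel and the reference channel, filled where the adjusted p was under 0.05. Hmox1 and Gsr are filled in the log ratio (0.36 and -0.20) and in the reference channel with the opposite sign (-0.25 and 0.15), while no liver channel value is filled.

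Each pair taken alone gave no call among the 9 in the fit used throughout. In M minus C the log ratio of Hmox1 differed by 0.48 ± 0.14 and that of Gsr by -0.29 ± 0.09 (limma adjusted p = 0.0682 and 0.0689). With slide row as a block both were called (limma adjusted p = 0.0315 and 0.0297), beside 10.5% of all features. Both had an unadjusted p under 0.05, as did 17.3% of all features, and 4.1% of all features passed after adjustment. Gsr was the only one of the 9 without overlap between M and C arrays, against 6.56% of all features that were lower in this way. The liver channel of M minus C had Mt2A alone at an unadjusted limma p under 0.05, against 8.26% of all features, and 0.00902% of all features were called.

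In MM minus CC the log ratio of Txnrd1 alone had an unadjusted limma p under 0.05 (-0.20 ± 0.09, adjusted p = 0.387), where 11.1% of all features did and 0.902% were called. Hmox1 differed there by 0.25 ± 0.14. No member had an unadjusted limma p under 0.05 in the liver channel of that pair, against 6.69% of all features, and 0.027% were called. The interaction of exposure and fostering gave no call by limma in either measure for any of the 9 or any other feature, and none of the 9 had an unadjusted p under 0.05, against 1.66% of all features in the log ratio and 1.51% in the liver channel.

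Cross-fostering without a change of exposure moved none of the 9 genes past the threshold. Differences of CC minus C in the log ratio ran from -0.11 (Gsr) to 0.39 (Mt2A), and those of MM minus M from -0.25 (Mt2A) to 0.07 (Gsr). The liver channel of Mt2A gave 0.57 ± 0.51 in CC minus C and -0.35 ± 0.51 in MM minus M, and that of Mt1 gave 0.42 ± 0.42 and -0.28 ± 0.42. By limma no member had an unadjusted p under 0.05 in either contrast, against 0.965% of all features in the log ratio of CC minus C and 1.76% in that of MM minus M (0.73% and 1.34% in the liver channel). The percentage of all features called was 0 in both.

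The rest of the pathway was read from 11 lists with 127 genes, 105 of them tested. In the log ratio, 5 were called higher and 7 lower with exposure, a median of -0.03 against -0.03 over all features. These 12 are 11.4% of the 105, beside 9.39% of all features called, so the counts do not set the lists apart. Called higher were Mafg, a small MAF partner of NRF2 (0.32 ± 0.08), Gss, glutathione synthetase (0.24 ± 0.07), Oplah, 5-oxoprolinase of glutathione turnover (0.36 ± 0.10), Selenos, a selenoprotein of the endoplasmic reticulum (0.27 ± 0.07), and Slc48a1, a heme transporter (0.33 ± 0.07). Called lower were Cbs and Cth, the enzymes that turn homocysteine into cysteine (-0.32 ± 0.09 and -0.57 ± 0.17), Prdx1, a peroxiredoxin (-0.27 ± 0.07), Cat, catalase (-0.39 ± 0.11), Gpx4, which reduces lipid peroxides (-0.27 ± 0.06), the small selenoprotein Selenow (-0.34 ± 0.07) and the serum amyloid Saa4 (-0.33 ± 0.08).

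The 12 called genes did not move in 1 direction, and the reference channel moved against the log ratio in all 12. That opposite shift was itself called in 11 of the 12, the exception being Cth, beside 82.2% of all features called in the log ratio. None of the 12 was called in the liver channel, where 9 had the sign of the log ratio and 3 an unadjusted limma p under 0.05. These were Selenow (-0.22 ± 0.07), Gpx4 (-0.14 ± 0.06) and Slc48a1 (0.14 ± 0.06). All 6 tested genes of superoxide and peroxide removal, a list that does not hold Gpx1, lay below 0 in the liver channel (median -0.15), none of them called. Of all features, 46.2% lay above 0 there, and a shared direction of this list was not tested. Zinc handling held no called gene in either measure among 9 tested, and its lowest liver p-values were those of the zinc importers Slc39a14 (0.12 ± 0.06) and Slc39a4 (-0.31 ± 0.20).

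NRF2 targets of drug and quinone metabolism held none either among 16 tested. There the lowest liver p-values were those of the bile export pump Abcc2 (0.19 ± 0.09) and the glutathione peroxidase Gpx2 (-0.14 ± 0.06). In NADPH supply, 5 tested genes held no call, with Me1 at 0.09 ± 0.18 and Tkt at -0.06 ± 0.11 in liver. The lowest limma adjusted p of these 6 values was that of Gpx2, at 0.327.

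Of the 105 pathway genes 1 (0.952%, beside 1.46% of all features) was called in the liver channel, Klf9, a transcription factor induced by glucocorticoids and thyroid hormone. It was 9.86 to 10.20 in MM pools and 9.50 to 10.23 in M pools, against 9.36 to 9.92 in CC pools and 9.02 to 9.31 in C pools. M and C did not overlap, and neither did CC and C, which share the absence of exposure, while MM and CC overlapped. Group means were 9.96 in MM, 9.94 in M, 9.67 in CC and 9.14 in C pools. Of all features, 2.99% were higher without overlap in M than in C pools and 0.388% in CC than in C pools. The exposed minus control difference of Klf9 was 0.55 ± 0.10 (limma adjusted p = 0.0183), and its reference channel also differed, by 0.21 ± 0.04 in the same direction. In the log ratio Klf9 gave 0.27 ± 0.11 (limma adjusted p = 0.140). Scaling the liver channel to the 75th percentile in place of quantiles gave 0.54 (limma adjusted p = 0.0698), and within the slide rows 0.55 in each (limma adjusted p = 0.141 and 0.183).

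**Figure D5:**
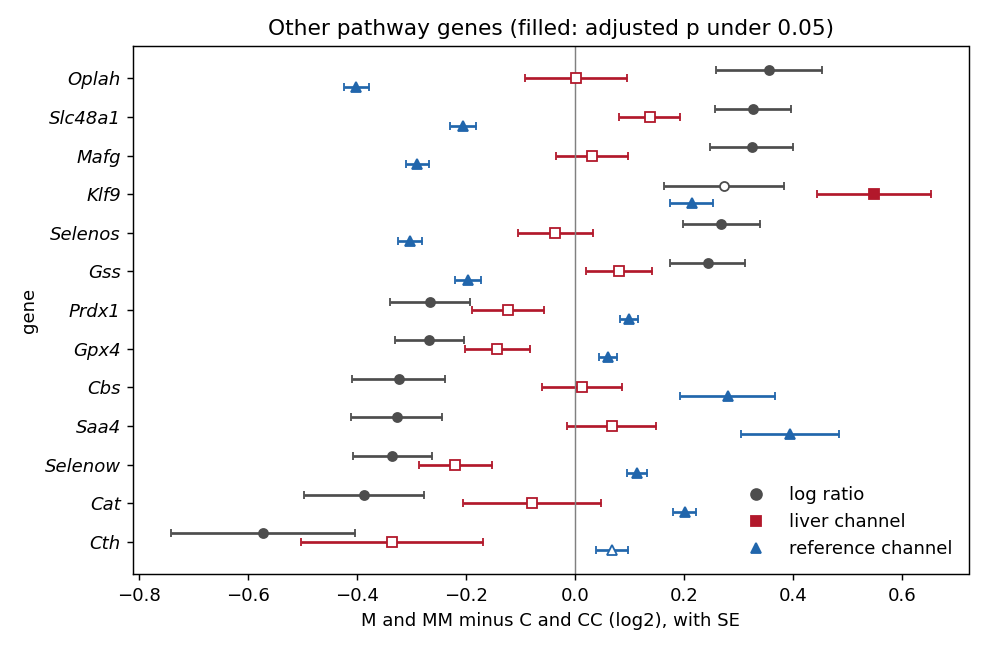
The 13 pathway genes outside the 10 that were called in the log ratio or in the liver channel, with the difference of M and MM minus C and CC (log2) and its SE in the log ratio, the liver channel and the reference channel, filled where the adjusted p was under 0.05. Reference channel values lie on the other side of 0 from the log ratio in all genes but Klf9, which is the only gene filled in the liver channel.

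Among all tested symbols, those whose liver channel values followed Mt1 most closely over the 16 pools, group means subtracted, were Mt2A (r = 0.93), Lpar2 (0.84), Selenow (0.81), Foxp1 (0.80) and Egf (0.79). For Nfe2l2 they were Borcs6 (r = 0.90), Dipk2a (0.87), Rbm5 (0.87), Rnf14 (0.84) and Mff (0.83). These are the top 5 of 7377 symbols each, picked for their correlation over few pools that share an array's normalization, and they are given as a description.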

How the data were processed

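Median spot and background intensity of each channel came from the deposited scanner files, written per the file headers by Feature Extraction 11.0.1.1 of Agilent, as did a log10 ratio made by the authors' scanner software. The plan named mean signals, but medians were used because the files carry no means. The authors' deposited value table was taken as log2 of liver over reference, since it correlated at 0.989 to 0.995 with loess log ratios made without background subtraction (slopes 0.979 to 0.994, array medians -0.04 to -0.03). Its centring is unknown.

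From the intensities, log ratios were made with normexp (offset 50) and within-array loess in limma 3.58.1 under R 4.3.3. Spots marked as outliers were left out (732 to 1138 per array), spots of a probe were averaged, and the probe with the brightest liver signal stood for each gene. Names came from the RefSeq table of GRCr8, which gave 18005 of 30367 probes a symbol. Testing was limited to features well above background in liver on at least 3 of 4 arrays of some group. Single channels were normexp-corrected and quantile-normalized. limma was fitted with 4 group means (12 residual degrees of freedom), and "called" means a Benjamini-Hochberg adjusted p, over all features, under 0.05. No array has a saturated spot for any of the 10 genes.

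On simulated data with 100 genes changed by 0.5 and 100 by 1 on the log2 scale among 11085, the exposure test recovered 77% and 99% in the log ratio and 76% and 98% in the liver channel. Of its calls, 3.83% in the log ratio and 7.45% in the liver channel were false. The simulated arrays held independent noise and no difference between slides. Their false shares therefore say nothing about calls that a slide difference could give. The rates are averages over genes drawn at random and do not describe Mt1 and Mt2A, whose SDs between pools were far above the median.

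CC and MM share replicate numbers 1 to 4 in their titles. Deviations of same-numbered pools from their group means correlated at 0.16 to 0.58 over features in the log ratio and 0.16 to 0.59 in the liver channel. The numbers were therefore treated as pairing these arrays, which also shared a slide row. Pools with different numbers were not compared, so the correlations cannot tell pairing from a shared slide row. The share of all features with the same sign in every pair was not computed.

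The genes, the lists and the tests were chosen with earlier results of these data known. All 10 genes are named whatever their values, then the called genes of each pathway list, or the 2 with the lowest liver p where a list held none, and the 5 symbols that followed Mt1 and Nfe2l2 most closely. Marker lists covered hepatocytes, Kupffer cells, erythroid cells, sinusoidal endothelium, stellate cells, cholangiocytes and lymphocytes (69 genes). The settings tried instead are described with the closing values.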

Additional observations from a re-analysis of the deposited data

Results flagged for a closer look

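Pools that stood apart from the other 3 of their group were looked for in each of 36 gene and group combinations per measure, by the gap to the nearest pool as a share of the group's range. Chance alone marks about 1 group in 20. Marked groups numbered 2 of 36 in the log ratio, 2 in the liver channel and 1 for the reference. Mt2A in M replicate 8 was high in the log ratio (2.69, the other M pools at most 1.51), in the liver channel (15.2, the others at most 13.7) and, by a smaller step, in the reference channel (13.4, the others at most 13.3). Nfe2l2 in CC replicate 3 was high in the log ratio (0.72, the other CC pools at most 0.19) and in the liver channel (10.9, the others at most 10.3).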

How the results depend on the processing

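No result reversed its sign while called. The log ratio count for exposure, 2 of 9 genes (Hmox1 and Gsr), became 1 without background subtraction, with no filter on dim probes and in the authors' deposited table (Hmox1 each time), rose to 3 with the scanner software's log ratio (Txnrd1 added), and was 0 within the first slide row, within the second slide row and without the arrays in the first slide column. Leaving out 1 array gave 0 to 2. In M minus C the log ratio count of 0 became 2 with slide row as a block (Hmox1 and Gsr) and 1 with the scanner software's log ratio (Gsr), and leaving out 1 array gave 0 to 1 (Hmox1 without M replicate 7). All other log ratio and liver channel counts stayed at 0 in every setting, and the reference channel count between the slides stayed at 6 without any 1 array. Fitted on the CC and MM arrays with the replicate block that pairs them, MM minus CC had 0 genes called in both measures, and the block changed no call. For exposure, Mt1 and Mt2A stayed above 0 in all settings of both measures (0.26 to 0.60 and 0.55 to 0.99 in liver), but the log ratio of MM minus CC kept its sign in 24 of 29 settings for Mt1 and 27 of 29 for Mt2A. Gclc and Srxn1 changed sign in the log ratio, Gclc between -0.09 and 0.05 and Srxn1 between -0.13 and 0.03. Precision is limited by 4 pools per group and by dim liver signal: Gclm was unreadable, and the background offset of 50 understates differences of dim genes such as Gsr, Txnrd1 and Hmox1.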
